A study of Capra hircus with 12 samples.

Results

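The let-7 family and its close relative miR-98 were followed through the yearly cycle of the secondary hair follicles (SHFs), the follicles that produce cashmere. Members were taken by name, as every listed miRNA called chi-let-7 or chi-miR-98, with both arms of each hairpin. This gave 18 of the 376 listed miRNAs, 9 from the 5p arm and 9 from the 3p arm. Small RNA was sequenced from SHFs dissected from the back skin of Liaoning cashmere goats of 1.5 years, in 6 months, with 1 female and 1 male library per month. February and March were grouped as telogen (n = 4), May was early anagen (n = 2), September was mid-anagen (n = 2), and November and December were grouped as catagen (n = 4). No group received a treatment. The study describes several goats of each sex per time point, and how they were combined into a library is not given in the sources used here, so p-values measure only the spread between these libraries. Library totals lay between 3135292 and 5788032 counts. Reads carried no molecular identifiers as far as the sources state, so intervals and floors cover counting error only.

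let-7 miRNAs are among the most conserved and abundant miRNAs of differentiated animal tissues. Their 5p arms share a seed, the stretch near the 5′ end that pairs with targets, and are the arms that are mainly loaded into Argonaute, while the 3p arms are mostly degraded. LIN28 proteins block the maturation of many let-7 precursors, and known targets include HMGA2, MYC and RAS genes. Because the 5p members differ from each other at only a few bases, reads of one can be credited to another, and how shared reads were assigned is not given in the sources used here, so the split between near-identical members is less certain than their sum.

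The tissue label was checked with miRNAs known from other cell types. Epithelial markers (6 of the 7 fixed were matched by name) summed to 56735 to 96687 TPM (counts scaled to one common library total). Mesenchymal markers (5 of 5) summed to 109737 to 139125 TPM. The mesenchymal list includes miR-143-3p, whose signal the study located in the hair matrix, so its sum does not stand for mesenchyme alone. Muscle markers (5 of 5, 1 of them at 0 in at least 1 library) summed to 1898 to 3607 TPM, leukocyte markers (3 of 5) to 387 to 650 TPM and endothelial markers (2 of 2) to 8819 to 12699 TPM. The erythrocyte markers (2 of 4) summed to 27.9 to 115 TPM in telogen, 24.5 to 45.9 in May, 16.6 to 28.3 in September and 5.41 to 26.4 in catagen. None of these sums was at 0 in any library, and their part in the results was not tested. In such bulk samples, fewer cells of a type and less RNA per cell cannot be told apart.

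The family took a similar part of every library. Its 18 members together held 16.1% and 18.9% of counts in the female and male February libraries, 15.6% and 18.7% in March, 18.5% and 20.5% in May, 16.3% and 17.7% in September, 18.9% and 17.0% in November and 17.3% and 19.6% in December. The highest library exceeded the lowest by 1.31-fold, and the groups overlapped, except that both May libraries lay above both September libraries. By group the share was 17.3% ± 1.69 in telogen (SD, n = 4), 19.5% ± 1.40 in May (n = 2), 17.0% ± 1.01 in September (n = 2) and 18.2% ± 1.25 in catagen (n = 4). The 95% Wilson interval of the female February share ran from 16.10% to 16.16%, far narrower than the spread between libraries. The male library was higher than the female in 5 of 6 months, by 1.44 to 3.05 percentage points. In November male minus female was -1.86 points. No test was run on the total, which is a score over members chosen together.

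**Figure D1:**
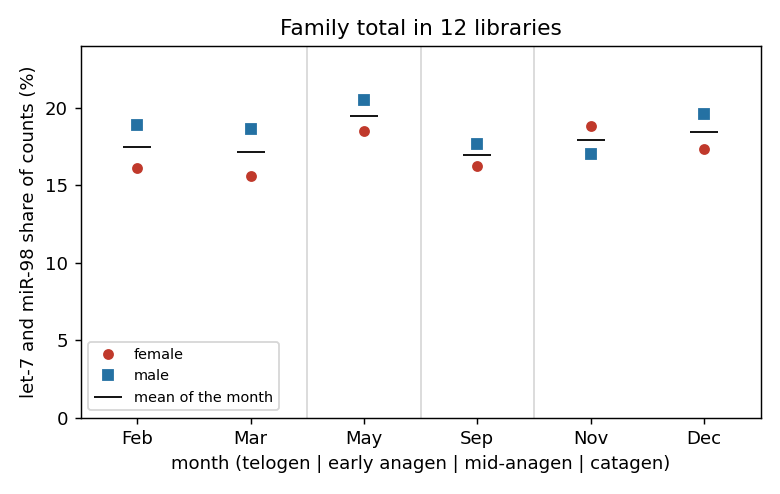
Share of all counts (%, y axis) held by the 18 let-7 and miR-98 members in each of the 12 libraries, by month (x axis), with circles for female, squares for male and a dash for the mean of the month. All 12 libraries lie between 15.6% and 20.5%, and both May libraries (18.5% and 20.5%) lie above both September libraries (16.3% and 17.7%).

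Nearly all of the family signal came from 5p arms. The 3p arms together made up 0.0868% to 0.145% of the family's counts. Ordered by mean TPM, the 5p members were let-7f, let-7g, let-7i, let-7a, let-7b, let-7c, miR-98, let-7e and let-7d. This order is read from TPM with no length term, which suits mature miRNAs because they are nearly equal in length. Neighbours in the order held their places in 12 of 12 libraries, except for let-7i-5p and let-7a-5p, where let-7i-5p was higher in only 6 of 12. Mean levels were 29040 ± 2653 TPM (SD, n = 12) for let-7i-5p and 26833 ± 4065 TPM for let-7a-5p. Within libraries, the ratio of let-7i-5p to let-7a-5p was 0.949 to 1.006 in telogen and 0.904 to 0.923 in May. It was 1.35 to 1.46 in September and 0.991 to 1.50 in catagen. This ratio was not tested. The 9 5p members had a median coefficient of variation of 16.8% across the libraries. It was 33.1% for the 300 miRNAs that passed the filter on low counts (CPM over 5 in at least 2 libraries). Of the 25 most abundant miRNAs, 5 were members. The 5p members were not compared with miRNAs of like abundance, so the lower value is not shown to be particular to the family. The scarcer 3p arms that passed the filter ran from 17.0% for let-7e-3p to 68.4% for let-7i-3p.

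let-7f-5p was the most abundant member, ranking 6 among all miRNAs. Its TPM was 51246 and 60002 in the female and male February libraries, 45984 and 59544 in March, 59326 and 65182 in May, 62197 and 65773 in September, 72710 and 59903 in November and 62549 and 69815 in December. The lowest values were in the 2 female telogen libraries, and the telogen and catagen ranges overlapped only by the male February value standing just above the male November value. let-7g-5p, processed from an intron of WDR82 in many mammals, had 35315 and 40604 TPM in February, 38114 and 41146 in March, 40713 and 46996 in May, 33392 and 37182 in September, 41397 and 39374 in November and 38530 and 44231 in December. Both May libraries lay above both September libraries, with the highest value in male May and the lowest in female September, and telogen and catagen overlapped. For this May and September separation the share of all miRNAs is not given here. let-7i-5p had 25490 and 30124 TPM in February, 24861 and 30165 in March, 27975 and 30947 in May, 29451 and 32089 in September, 28260 and 31593 in November and 25344 and 32184 in December. It was the steadiest member, its highest library exceeding the lowest by 1.29-fold, and the male library was the higher in every month.

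let-7a-5p and let-7b-5p, whose genes lie side by side, moved alike. let-7a-5p had 26848 and 31290 TPM in February, 25936 and 29976 in March, 30930 and 33535 in May, 20218 and 23731 in September, 25568 and 21114 in November and 25562 and 27290 in December. let-7b-5p had 14328 and 15793 TPM in February, 14226 and 15824 in March, 15172 and 17348 in May, 9768 and 10421 in September, 12188 and 11074 in November and 13145 and 13854 in December. The September libraries of both lay below all telogen and May libraries, and for let-7b-5p the catagen libraries also lay below all telogen libraries. The share of all tested miRNAs that separated in these ways is not given here. Neither separation is thus shown to be particular to these members. let-7c-5p had 4524 and 5979 TPM in February, 3437 and 5321 in March, 5810 and 5762 in May, 4243 and 4289 in September, 4737 and 3634 in November and 4508 and 5098 in December, with overlapping telogen and catagen values.

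miR-98-5p, made from an intron of HUWE1 on the X chromosome in mammals, showed the widest swing in TPM among the 5p members. Its TPM was 1861 and 2716 in February, 2015 and 2484 in March, 2687 and 2755 in May, 1447 and 1694 in September, 1512 and 1322 in November and 1459 and 1574 in December. All 6 libraries from September to December lay below all 6 from February to May, and the highest library exceeded the lowest by 2.08-fold. How many of all miRNAs separated in this way was not counted. The other 5p members were scarcer, let-7e-5p at 767 to 1488 TPM and let-7d-5p at 464 to 870 TPM. The 3p members ranged in mean from 83.7 TPM for let-7b-3p and 62.2 for let-7a-3p through 20.2 for let-7d-3p, 13.2 for let-7e-3p, 9.80 for let-7i-3p, 6.06 for let-7f-3p and 4.53 for let-7c-3p to 2.70 for miR-98-3p and 1.97 for let-7g-3p. The last 2 did not pass the filter, so 16 of the 18 members were tested. A count of 3, taken as the floor, equals 0.518 to 0.957 TPM, and 1 library of let-7g-3p (male September, 0.390 TPM) was under it.

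Within the family, the shares of several members differed between February to May and September to December, while the family total overlapped between those periods. Shares of the family total are ratios within a library and do not depend on how libraries are scaled to each other. They add up to the whole in each library, so a higher share of let-7f-5p must come with lower shares elsewhere. A lower share is therefore not by itself a lower level. let-7f-5p held 29.4% to 31.9% of the family in telogen, 31.8% to 32.1% in May, 37.2% to 38.2% in September and 35.2% to 38.6% in catagen. let-7a-5p held 16.1% to 16.6% in telogen, 16.4% to 16.7% in May, 12.4% to 13.4% in September and 12.4% to 14.8% in catagen. The 6 libraries from September to December thus lay above all 6 earlier libraries for let-7f-5p and below them for let-7a-5p. How many of all tested miRNAs separated these periods was not counted, so this split is not shown to be particular to members.

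let-7b-5p followed let-7a-5p, with 8.37% to 9.11% of the family in telogen, 8.20% to 8.47% in May, 5.89% to 6.01% in September and 6.47% to 7.59% in catagen. miR-98-5p held 1.15% to 1.44% in telogen, 1.34% to 1.45% in May, 0.890% to 0.957% in September and 0.778% to 0.843% in catagen, so that catagen lay below September too. let-7d-5p was highest in telogen (0.416% to 0.461%), followed by May (0.362% to 0.389%), catagen (0.333% to 0.363%) and September (0.285% to 0.318%). All 3 had lower shares after May, as had let-7a-5p, although the May and catagen ranges of let-7d-5p touched.

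Other members did not follow this split. let-7g-5p held 21.5% to 24.4% in telogen, 22.0% to 22.9% in May, 20.5% to 21.0% in September and 22.0% to 23.2% in catagen, overlapping between all groups other than September. let-7i-5p held 15.8% to 16.2% in telogen, 15.11% in both May libraries, 18.1% in both September libraries and 14.6% to 18.6% in catagen. The catagen range of let-7i-5p took in all values of the other groups, with an SD of 1.79 points against 0.148 in telogen. let-7e-5p had lower shares in telogen (0.491% to 0.611%) than in catagen (0.634% to 0.707%), while its May range was 0.638% to 0.804% and its September range 0.610% to 0.783%.

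**Figure D2:**
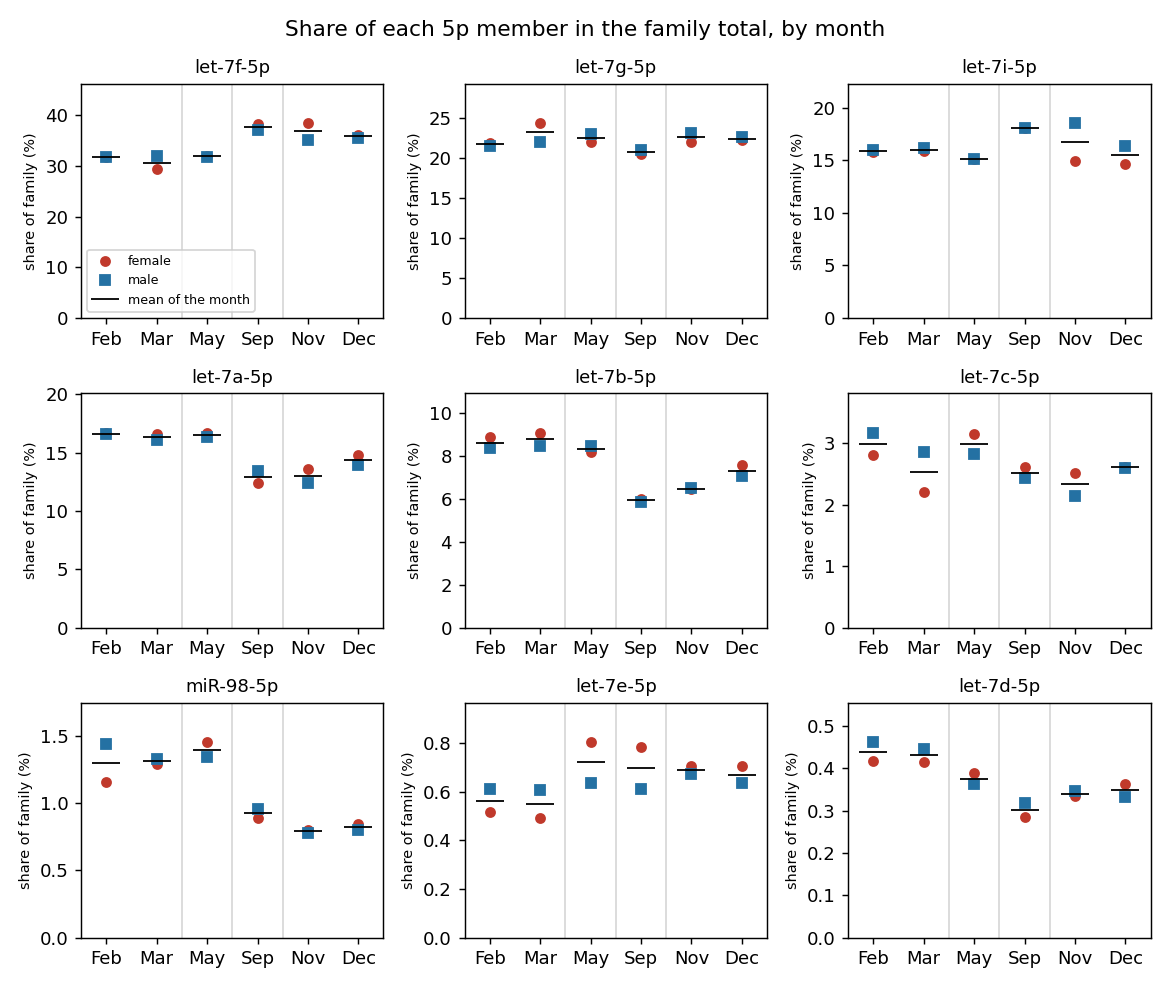
Share of the family total (%, y axes starting at 0) of each of the 9 5p members in the 12 libraries, by month, with circles for female, squares for male and a dash for the mean of the month. let-7f-5p is higher in September than in May (37.2% to 38.2% against 31.8% to 32.1%), while let-7a-5p, let-7b-5p and miR-98-5p are lower.

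The ratio of let-7a-5p to let-7f-5p summarises this split. It was 0.503 to 0.564 in telogen, 0.514 to 0.521 in May, 0.325 to 0.361 in September and 0.352 to 0.409 in catagen. The ratio of miR-98-5p to let-7f-5p was 0.0363 to 0.0453 in telogen, 0.0423 to 0.0453 in May, 0.0233 to 0.0258 in September and 0.0208 to 0.0233 in catagen. By contrast, let-7b-5p relative to let-7a-5p varied little, at 0.505 to 0.548 in telogen, 0.491 to 0.517 in May, 0.439 to 0.483 in September and 0.477 to 0.524 in catagen. Relative to the family total, telogen and catagen did not overlap in 7 of the 16 tested members, with let-7a-5p, let-7b-5p, let-7d-5p, let-7i-3p and miR-98-5p higher in telogen and let-7e-5p and let-7f-5p higher in catagen. Over all 300 tested miRNAs, 32.7% did not overlap when set against the same total. Separation of the 2 phases was thus common in these libraries. In TPM, let-7b-5p, let-7i-3p and miR-98-5p separated, and the share of all tested miRNAs that did so on that scale is not given here.

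Levels between groups were compared by the quasi-likelihood test of edgeR on TMM-scaled counts. TMM sets libraries on a common scale by the bulk of the miRNAs. A miRNA was called where its Benjamini-Hochberg adjusted p over the 300 tested miRNAs was under 0.05 and its change at least 2-fold. let-7i-3p was the only member called, in 2 of the 6 comparisons. Members called and background were 0 of 16 against 10.7% of all tested for telogen minus catagen, 0 of 16 against 2.33% for May minus telogen, 1 of 16 against 18.3% for September minus May, 0 of 16 against 0.0% for catagen minus September, 1 of 16 against 16.7% for catagen minus May and 0 of 16 against 9.33% for September minus telogen. With 0 or 1 of 16 members called in each comparison, these counts are too small to set the family apart from all miRNAs. DESeq2 called 1 member, let-7i-3p, in 4 comparisons (telogen minus catagen, September minus May, catagen minus May and September minus telogen) and 0 in the other 2. The share of all tested miRNAs called by DESeq2 is not given here, so these counts cannot be set against it. In the 2 comparisons with no member call by either tool, 0 members had an unadjusted p under 0.05 for May minus telogen, where 88 of all 300 did, and 3 had one for catagen minus September, where 23 of all 300 did.

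let-7i-3p is the passenger arm of let-7i. Its counts were 57 and 46 in February, 75 and 50 in March, 94 and 63 in May, 20 and 27 in September, 6 and 12 in November and 40 and 26 in December. In TPM this was 9.85 and 10.4, 14.7 and 12.1, 22.7 and 20.1, 3.70 and 5.28, 1.74 and 3.09, and 8.89 and 5.05, in the same order. Both May libraries were the highest, all telogen libraries lay above all catagen libraries, and the female December library came closest to telogen. The share of all tested miRNAs that separated in these ways in TPM is not given here. let-7i-3p fell by 1.73 on the log2 scale from May to September (SE 0.49, edgeR adjusted p = 0.0171) and by 1.62 from May to catagen (SE 0.40, edgeR adjusted p = 0.00756). Leaving out the female September library gave a log2 difference of -1.54 for September minus May with an edgeR adjusted p of 0.112, and leaving out the male September library gave -1.95 with 0.0545. The fall from May to catagen held with any of the 12 libraries left out, at -2.06 to -1.39.

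**Figure D3:**
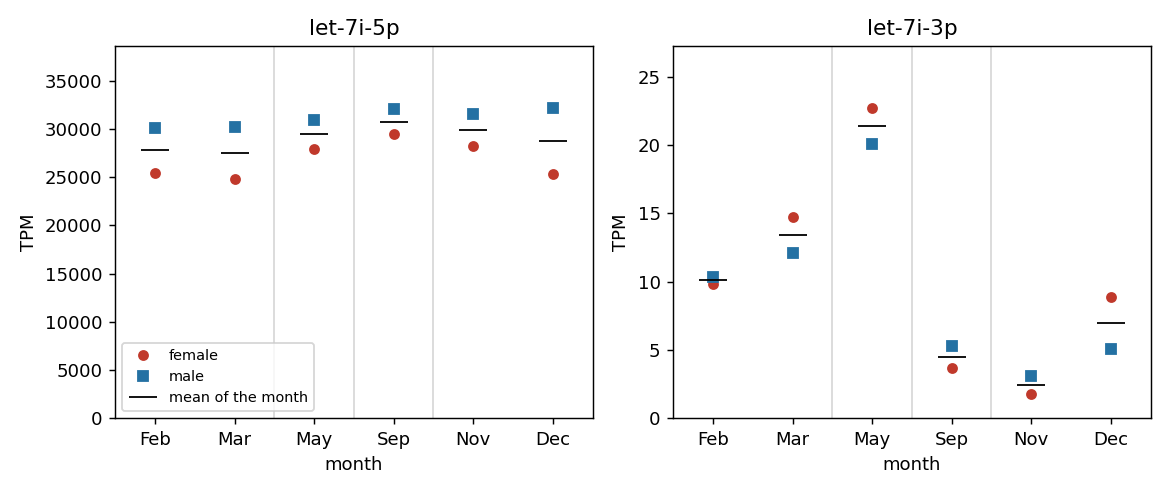
TPM (y axes starting at 0) of let-7i-5p (left) and let-7i-3p (right) in each library by month, with circles for female, squares for male and a dash for the mean of the month. let-7i-5p stays between 24861 and 32184 TPM, while let-7i-3p falls from 20.1 and 22.7 TPM in May to 3.70 and 5.28 in September.

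With no minimum fold, smaller changes of the abundant members passed the test. From telogen to catagen, let-7f-5p rose (telogen minus catagen -0.66 on the log2 scale, SE 0.10, edgeR adjusted p = 0.000925), as did let-7e-5p (-0.72, SE 0.13), let-7g-5p (-0.44, SE 0.09), let-7i-5p (-0.45, SE 0.10) and let-7e-3p (-0.64, SE 0.18), while let-7i-3p fell (0.96, SE 0.35, edgeR adjusted p = 0.0493). These were 5 of 16 members lower in telogen against 21.0% of all tested, and 1 of 16 higher against 14.0%. The 4 changes of 5p members held with any 1 library left out, in fits that all used TMM. On library totals 0 of 16 members were lower in telogen, so these changes did not pass on that scale. The let-7e-3p change reached an edgeR adjusted p of 0.0574 without the male November library, at -0.50. The let-7i-3p change passed in 2 of the 12 fits that leave out a library, without male March (1.03, edgeR adjusted p = 0.0420) or female December (1.40, 0.00592), and its edgeR adjusted p was between 0.0533 and 0.123 in the other 10, at 0.73 to 1.03.

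From May to September, let-7f-5p rose by 0.57 on the log2 scale (SE 0.15, edgeR adjusted p = 0.0114) and let-7i-5p by 0.59 (SE 0.15, edgeR adjusted p = 0.0102). These were 2 of 16 members higher against 18.7% of all tested, and let-7i-3p was the 1 member lower against 15.3%. Both rises failed the test without male March, female May, male May or female September, with log2 differences of 0.28 to 0.59 for let-7f-5p and 0.30 to 0.62 for let-7i-5p. Neither let-7a-5p (-0.03, SE 0.14, edgeR adjusted p = 0.886) nor let-7b-5p (-0.16, SE 0.13, edgeR adjusted p = 0.359) nor miR-98-5p (-0.27, SE 0.15, edgeR adjusted p = 0.203) passed on this scale.

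Catagen minus May gave 4 members higher, let-7e-3p (0.82), let-7f-5p (0.65), let-7g-5p (0.46) and let-7i-5p (0.56), against 20.7% of all tested, and 1 lower, let-7i-3p, against 16.3%. Without the female May library let-7i-3p was the 1 member that still passed, and the other 4 stood at 0.17 to 0.63. let-7e-3p also failed without male May (0.80) and let-7g-5p without male March (0.34). September minus telogen gave 3 members higher, let-7e-5p (0.62), let-7f-5p (0.57) and let-7i-5p (0.48), against 15.0% of all tested, and 0 lower against 10.3%. Without the female September library 0 of the 3 passed, and without female December 5 members did. let-7i-5p also failed there without female March, male March, female May or male September, at 0.37 to 0.47. May minus telogen called 0 members at any fold against 5.33% of all tested.

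Which members passed, and whether more of them were called higher or lower, depended on the scale. TMM factors were 1.25 and 1.29 in May but 0.848 and 0.912 in September. Scaled by library totals instead, the median log2 difference of all tested miRNAs moved to -0.46 for September minus May and 0.35 for telogen minus catagen, from 0.07 and near 0 with TMM. On library totals, 0 of 16 members were higher in September than in May against 7.0% of all tested, and 7 were lower against 33.7%. The 7 were let-7a-5p (-0.55), let-7b-5p (-0.69), let-7d-5p (-0.51), miR-98-5p (-0.79), let-7a-3p (-0.78), let-7b-3p (-0.76) and let-7i-3p (-2.25), and let-7f-5p stood at 0.04. For telogen minus catagen, let-7i-3p (1.29) and miR-98-5p (0.63) were the 2 members higher, against 30.0%, and 0 were lower, against 6.33%. For catagen minus May, the 4 higher and 1 lower with TMM became 0 higher, against 7.0%, and 6 lower, against 38.7%. For September minus telogen, the 3 higher and 0 lower became 0 higher, against 5.33%, and 4 lower, against 23.3%. Of the changes that passed with TMM, 2 changed sign, let-7g-5p (-0.10) and let-7i-5p (-0.0057) for catagen minus May, and the others of 5p members kept their direction but did not pass. The sum of the 5p members was lower in May than in September with TMM (September minus May 0.33, SE 0.13) and higher with library totals (-0.20, SE 0.14).

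A change of scale shifts all members by nearly the same amount, so the order of their differences says nothing about the scale. let-7i-3p fell from May to September and from May to catagen on both scales.

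**Figure D4:**
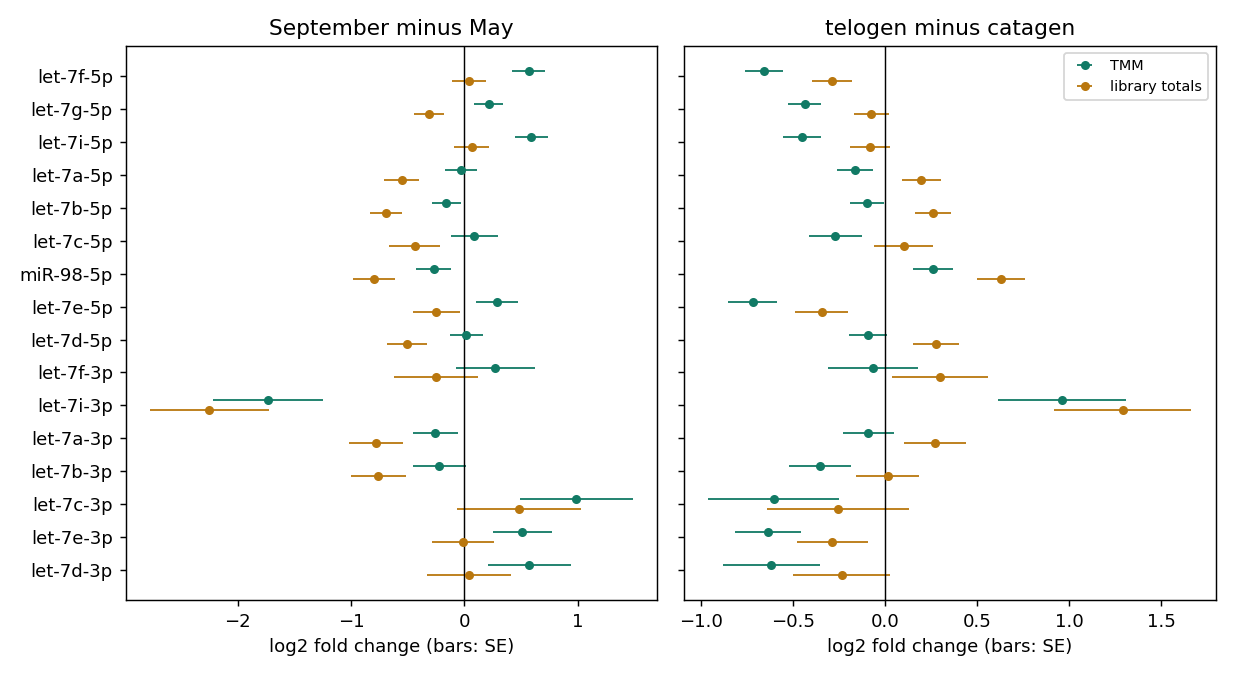
Log2 fold change (x axes, points with SE bars) of the 16 tested members for September minus May (left) and telogen minus catagen (right), with TMM scaling in green and library totals in brown. Changing the scale shifts all members together, so that let-7f-5p moves from 0.57 to 0.04 for September minus May, while let-7i-3p stays low at -1.73 and -2.25.

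In a fit of the 6 months, each of 2 libraries, September minus May was the 1 step of 6 between successive sampled months that called a member at 2-fold. This was again let-7i-3p (-1.73, SE 0.36, edgeR adjusted p = 0.00574), 1 of 16 members against 17.3% of all tested. Of all 300 tested miRNAs, 4 were called for February minus December. March minus February, May minus March, November minus September and December minus November called 0 of all 300. A member call in this step alone is therefore not particular to the family. Male minus female, with month as a term, called 0 of 16 members against 0.0% of all tested in edgeR, with 0 members and 34 of all 300 at an unadjusted p under 0.05 and 0 members called by DESeq2. The telogen to catagen difference was compared between the sexes with an interaction term, which called 0 of 16 members against 3.33% of all tested, with 0 members and 70 of all 300 at an unadjusted p under 0.05 in edgeR and 0 members called by DESeq2. The lowest edgeR adjusted p among members was 0.615 for sex and 0.362 for the interaction.

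The ratio of the 5p to the 3p arm of a hairpin also does not depend on library scaling. It was tested with limma as log2((5p count + 1)/(3p count + 1)) over the 82 hairpins with both arms past the filter, 7 of them let-7 hairpins. Arms were paired by their listed names, and whether a listed arm also comes from other gene copies was not examined. The let-7 hairpins were strongly 5p-biased, with let-7f ranking 2, let-7i 3, let-7c 4 and let-7a 6 from the most 5p-biased of the 82, and let-7b 15, let-7e 20 and let-7d 25. Mean log2 ratios were 13.27 for let-7f and 11.83 for let-7i.

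For let-7i the log2 ratio was 11.31 and 11.47 in February, 10.70 and 11.26 in March, 10.25 and 10.57 in May, 12.89 and 12.52 in September, 13.77 and 13.20 in November and 11.44 and 12.58 in December. May was lowest, and the female December library was the only catagen library inside the telogen range. The limma difference was -1.56 for telogen minus catagen (SE 0.35, adjusted p = 0.00159), 2.29 for September minus May (SE 0.49, adjusted p = 0.00081), 2.34 for catagen minus May (SE 0.43, adjusted p = 0.000199) and 1.52 for September minus telogen (SE 0.43, adjusted p = 0.00895). The first 3 held with any library left out, and the last gave 1.33 with a limma adjusted p of 0.106 without female September. Between the lowest and the highest library, let-7i-5p differed by 1.29-fold in TPM and let-7i-3p by 13.1-fold.

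let-7f shifted the same way more weakly, with counts of 16 to 36 for its 3p arm. Its log2 ratio was 12.74 to 13.22 in telogen and 13.25 to 14.01 in catagen (telogen minus catagen -0.60, SE 0.23, limma adjusted p = 0.0368). Leaving out female March, male March, female November or female December took the limma adjusted p to 0.0864 to 0.0937, at -0.56 to -0.45. let-7d moved the other way, with a log2 ratio of 5.003 to 6.11 in telogen and of 4.06 and 4.85 in September (September minus telogen -1.04, SE 0.33, limma adjusted p = 0.0204). Without female September this was -0.65 with a limma adjusted p of 0.292, and without male February -0.83 with 0.0581.

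Changes of arm ratio were common among all hairpins. Member hairpins called were 2 of 7 against 48.8% of the 82 for telogen minus catagen, 0 of 7 against 9.76% for May minus telogen, 1 of 7 against 40.2% for September minus May, 0 of 7 against 0.0% for catagen minus September, 1 of 7 against 43.9% for catagen minus May and 2 of 7 against 39.0% for September minus telogen. Where limma called 0 members, 0 of 7 also had an unadjusted p under 0.05, while 29 of all 82 did for May minus telogen and 4 for catagen minus September.

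**Figure D5:**
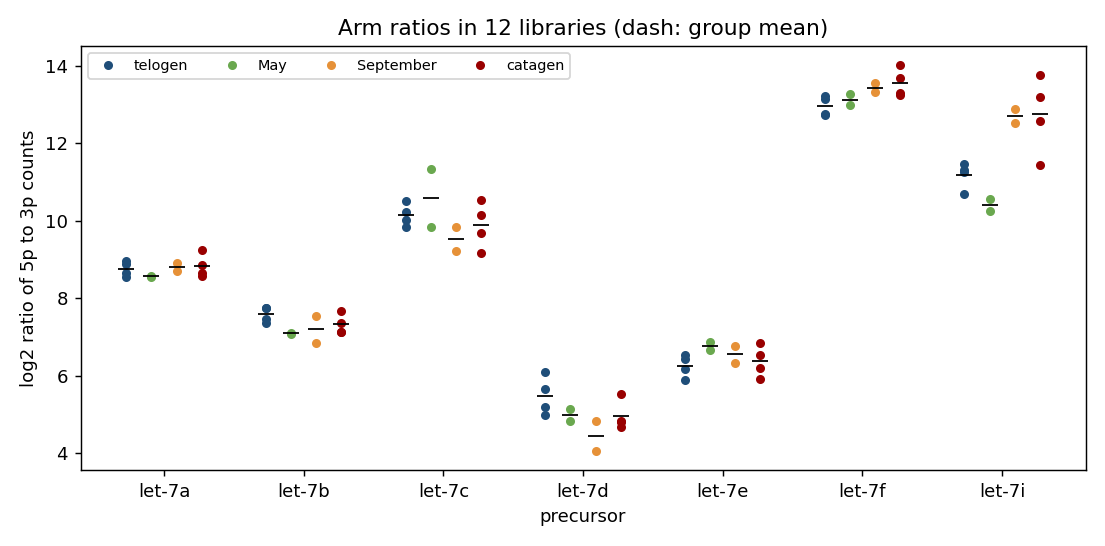
Log2 ratio of 5p to 3p counts (y axis) for the 7 let-7 hairpins with both arms tested (x axis), one point per library coloured by group, with a dash for the group mean. let-7i spans 10.25 to 13.77 with May lowest, and let-7f lies lower in telogen (12.74 to 13.22) than in catagen (13.25 to 14.01).

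Several let-7 genes sit in clusters with other miRNAs, and members of one cluster can be cut from one primary transcript. In the RefSeq annotation of assembly ARS1.2, which is not the build of the deposited files and was used for names and neighbours only, MIRLET7E lies within 10 kb of MIR99B, MIRLET7C of MIR99A, MIRLET7A of MIRLET7B and MIRLET7F of MIRLET7D. MIRLET7G lies within WDR82 and MIR98 within HUWE1. Across the 12 libraries, which share depth and scaling, let-7e-5p and miR-99b-5p tracked each other (Pearson r = 0.946 with TMM and 0.900 with library totals, log2 scale, n = 12). Their ratio stayed between 0.613 and 0.782. let-7a-5p and let-7b-5p did so as well (r = 0.813 and 0.946). MIRLET7I has no miRNA gene within 10 kb. Its 3p arm still reached r = 0.936 with TMM and 0.966 with library totals with miR-188-5p, its most alike non-member with TMM. Whether neighbours share a transcript in these samples was not tested.

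The other cluster pairs were less alike. let-7c-5p and miR-99a-5p had r = 0.139 and 0.037, and their ratio ran from 0.113 to 0.251, at 0.113 to 0.174 in telogen and 0.247 to 0.251 in May. let-7f-5p and let-7d-5p had r = 0.370 and -0.135, with let-7f-5p at 69.0 to 134 times let-7d-5p. Of the partners that accompany let-7 genes in other mammals, miR-125a-5p had r = 0.105 and 0.360 with let-7e-5p, and miR-125b-5p had r = 0.061 and 0.623 with let-7c-5p. These are descriptions over libraries and carry no test.

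Among the partner miRNAs of let-7 clusters (miR-99a, miR-99b, miR-100, miR-125a and miR-125b, with 9 of 10 arms matched by name), 6 of 9 passed the edgeR test at any fold for telogen minus catagen (as did 105 of all 300), 3 for May minus telogen (5.33% of all tested), 8 for September minus May (34.0%), 0 for catagen minus September (0.0%), 9 for catagen minus May (37.0%) and 5 for September minus telogen (25.3%). On library totals the counts were 2, 3, 4, 0, 4 and 2 of 9, beside 36.3%, 5.67%, 40.7%, 0.0%, 45.7% and 28.7% of all tested. The median log2 difference of the 9 was 0.72 for September minus May, beside 0.15 for the 16 members and 0.07 for all tested, and on library totals it was 0.19, beside -0.38 and -0.46. Within miR-99a, the 5p arm rose from May to September (0.72, edgeR adjusted p = 0.0116) and the 3p arm fell (-1.10, edgeR adjusted p = 0.00241). On library totals miR-99a-5p stood at 0.19 (edgeR adjusted p = 0.353) and miR-99a-3p at -1.63 (0.00105). miR-125b-3p rose (1.43, edgeR adjusted p = 0.00241) and miR-125b-5p fell (-0.52, edgeR adjusted p = 0.0263). On library totals miR-125b-3p still rose (0.90, edgeR adjusted p = 0.0358) and miR-125b-5p still fell (-1.04, 0.00217), so the 2 arms of miR-125b moved in opposite directions on both scales.

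The miRNAs most like the sum of the 5p members across the 12 libraries with TMM scaling were miR-106b-3p (Pearson r = 0.925), the candidate listed as novel_98 (0.920) and miR-7-5p (0.899). With library totals the same values were 0.374, 0.171 and 0.294. These 3 were picked as the highest with TMM, and the most alike on library totals were not looked up. The lower values thus do not show by themselves how far likeness rests on the scaling. For let-7i-3p the 3 most alike were miR-188-5p (r = 0.936), miR-199a-3p (0.920) and miR-106b-5p (0.911), with 0.966, 0.951 and 0.953 on library totals. These were chosen as the highest of all tested miRNAs and are given as a description.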

How the data were processed

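Per the study's methods, adapter-trimmed reads were mapped to the goat genome CHIR_2.0 with Bowtie 0.12.9. The authors deposited, for each of 12 libraries, raw counts per miRNA and TPM values. The deposited TPM equal counts scaled to the same total in every library, within 0.00499 TPM, with no length term. Library totals were 3135292 to 5788032. Tests used the counts in R 4.3.3 with edgeR 4.0.16 (TMM, glmQLFit, 4 groups in 1 fit of 12 libraries, CPM over 5 in at least 2 libraries, adjusted p under 0.05 and at least 2-fold), and arm ratios used limma 3.58.1 with a pseudocount of 1. DESeq2 1.42.0, other scalings, no filter, sex as a block, a fit of the compared groups alone and each library left out were alternatives. Members were described in full where their mean was over 1000 TPM, where they were called, or where the arm ratio of a 3p arm was called. Non-members named were the cluster partners and the 3 miRNAs most alike. Members and lists were chosen with earlier results of these data known. Scripts were tested on simulated data.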

Additional observations from a re-analysis of the deposited data

Results flagged for a closer look

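In groups of 4, a library was picked out when its gap to the nearest other library, divided by the range of the group, exceeded Dixon's 95% critical value. Of 70 sets of 4 values examined (TPM, family share, shares of 5p members and log2 arm ratios, in telogen and in catagen) 3 were picked out, and chance flags about 1 set in 20. let-7d-3p had 13.3 TPM in the female December library, while the other catagen libraries had 22.3 to 22.7. let-7a-5p held 16.06% of the family in the male March library, against 16.58% to 16.65% in the other telogen libraries. let-7f-5p held 29.4% of the family in the female March library, against 31.8% to 31.9% in the other telogen libraries. In each case the library lay below the others of its group, and the cause was not tested.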

How the results depend on the processing

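Member counts at 2-fold went from 0 to 1 for telogen minus catagen with library totals, RLE, DESeq2 or no filter (let-7i-3p), from 0 to 1 for September minus telogen with library totals or DESeq2, and from 1 to 2 for catagen minus May with no filter (let-7g-3p added). With no minimum fold they were 6, 3, 5 and 3 for telogen minus catagen, September minus May, catagen minus May and September minus telogen, and 3 between successive sampled months. Counts at any fold, a rule added after the data were seen, became 2 and 7 with library totals for telogen minus catagen and September minus May, 3 with only the groups compared for catagen minus May and 6 with DESeq2 for September minus telogen. Library totals turned let-7g-5p (-0.10) and let-7i-5p (-0.0057) for catagen minus May. Without the most abundant other miRNA, miR-26a-5p, the family held 20.9% of telogen counts, 22.6% of May counts, 20.1% of September counts and 22.4% of catagen counts. Leaving out each library gave 0 to 1 members at 2-fold for telogen minus catagen, September minus May and September minus telogen, and at any fold 0 to 3 for September minus May, 1 to 6 for catagen minus May and 0 to 5 for September minus telogen. The arm-ratio calls, 6 over all comparisons, stayed at 4 to 8. Sex as a block and scaling without the members changed no count by over 1.5 times. Beyond the any-fold counts with library totals, the share of all tested miRNAs under these alternatives is not given here. The member counts under them, also with a library left out, therefore cannot be set against that share. Of single differences under alternatives, 266 kept direction and side of the threshold, 55 kept direction only and 2 turned. Summing near-identical members was not run, since no mature sequences were at hand. Low 3p counts limit those arms most.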
